A study of Homo sapiens with 12 samples.

Results

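CYP1B1 and 5 other genes of the aryl hydrocarbon receptor (AHR) pathway were followed in HSC-3, an established human oral squamous carcinoma cell line. The 6 genes are CYP1B1, TIPARP, CYP1A1 and AHRR, which are transcriptional targets of the receptor, NQO1, which is a target of both AHR and NRF2, and AHR itself. They were chosen because CYP1B1 had fallen when the ORAI inhibitor synta-66 was added, and the question is whether that fall extended to other targets. Each gene was read at its own row and, where there was one, at the annotated feature with most reads whose exons overlap its exons by at least 30 bases on the other strand. This gave 9 rows, and TIPARP-AS1, named beside TIPARP, made 10 of the 60675 gene rows. Of these 10, 8 passed the filter on low counts, as did 14911 rows of the whole series.

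The 12 libraries form 3 groups of 4: cells given 25 µM cyclopiazonic acid (CPA) together with synta-66 for 3 hours, cells given 25 µM CPA alone for 3 hours, and untreated cells. CPA blocks the SERCA pump and so empties the calcium store of the endoplasmic reticulum, which opens ORAI channels in the plasma membrane. No source used here gives the dose of synta-66, and cells given synta-66 alone were not analysed here. All groups are 1 cell line, and whether a group's 4 libraries are independent cultures is not stated in the labels. The p-values therefore reflect the variation among these libraries, part or all of which may be technical.

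AHR is a ligand-activated transcription factor that waits in the cytoplasm in a complex with the chaperone HSP90 and its partner p23 (PTGES3). On binding a ligand such as a dioxin, a polycyclic aromatic hydrocarbon or a tryptophan metabolite, it enters the nucleus, pairs with ARNT and binds sites with the core GCGTG. Its best known targets are the cytochromes P450 CYP1A1 and CYP1B1, which oxidise hydrocarbons and steroids. Other targets are TIPARP, an ADP-ribosyltransferase that curbs the receptor, and AHRR, a repressor that competes with it for ARNT.

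The promoters of 4 members are shown because this core is what the receptor binds; it is in capitals on either strand (GCGTG, or CACGC where it lies on the other strand). They are the 250 bases before the RefSeq start nearest the main annotated transcript (GRCh38.p14), 5′ to 3′ on the gene's strand, for TIPARP (chr3:156674340-156674589, plus strand), CYP1A1 (chr15:74725529-74725778, minus strand), AHRR (chr5:321464-321713, plus strand) and NQO1 (chr16:69726561-69726810, minus strand).
TIPARP: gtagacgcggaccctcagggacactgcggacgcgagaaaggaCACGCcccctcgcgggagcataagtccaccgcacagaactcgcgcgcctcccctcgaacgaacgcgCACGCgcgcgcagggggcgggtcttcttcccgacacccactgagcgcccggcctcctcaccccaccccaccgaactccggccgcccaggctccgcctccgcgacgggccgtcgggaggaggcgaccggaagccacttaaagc
CYP1A1: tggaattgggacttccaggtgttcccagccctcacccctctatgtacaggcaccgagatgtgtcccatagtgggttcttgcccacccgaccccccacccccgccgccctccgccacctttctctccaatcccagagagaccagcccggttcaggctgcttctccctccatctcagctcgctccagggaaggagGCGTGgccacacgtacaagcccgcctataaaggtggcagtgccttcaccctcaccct
AHRR: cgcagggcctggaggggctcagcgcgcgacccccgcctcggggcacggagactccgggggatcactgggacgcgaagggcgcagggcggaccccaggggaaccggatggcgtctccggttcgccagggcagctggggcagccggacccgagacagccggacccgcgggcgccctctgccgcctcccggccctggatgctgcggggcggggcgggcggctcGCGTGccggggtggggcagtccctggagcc
NQO1: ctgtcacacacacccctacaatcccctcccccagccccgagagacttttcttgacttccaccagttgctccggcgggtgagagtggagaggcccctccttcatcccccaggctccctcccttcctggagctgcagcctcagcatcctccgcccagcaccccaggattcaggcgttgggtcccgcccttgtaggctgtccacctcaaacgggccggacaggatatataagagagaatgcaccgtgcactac
The core was found at 2 places before TIPARP, at 1 before CYP1A1 and at 1 before AHRR, and at 0 before NQO1 and AHR. It was present in 32.2% of all 35116 RefSeq promoter windows of the same length, so a match is common. A match describes these letters only, and no match says only that the core is not in this window. RefSeq sequence was found for 5 of the 6 genes, not for CYP1B1.

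Libraries held 2819486 to 5458858 reads assigned to genes, which were 3.59% to 9.4% of uniquely aligned reads. There were 3 libraries that stood apart: CPA with synta-66 replicates 1 and 4 and untreated replicate 3 had 39.6% to 53.5% of their gene reads in mitochondrial ribosomal RNA, against 0.165% to 11.8% in the other libraries. Levels are CPM, reads scaled to a common library size after TMM, a method that sets the bulk of genes equal between libraries. Of the squamous epithelial markers, KRT8 and KRT18 share opposite strands of one locus and had a mean of 7740 CPM at the row of KRT8. CDH1 had a mean of 159 CPM at the feature opposite it and 1.41 CPM at its own row. KRT5, KRT14 and the lineage factor TP63, which have no opposite feature, had 21.3, 6.32 and 0.623 CPM at their own rows. Fibroblast and endothelial markers were at or near 0, with no library above 1.29 CPM summed over a list by own rows. Of the immune markers, CD68 had a mean of 53 CPM at the feature opposite it and 4.2 CPM at its own row. CD14, PTPRC and LYZ had means of 0.882, 0.298 and 0.185 CPM at their own rows, and CD3E and MS4A1 had 0 reads.

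For each member with an opposite feature, that feature held far more reads than the gene's own row. The own row of NQO1 held 2% of the reads at its opposite feature with CPA and synta-66, 1.73% with CPA and 1.73% in untreated cells. For AHR these shares were 8.41%, 8.83% and 8.29%. Reads at such a feature may come from either strand's transcript, which these counts do not tell apart. A low own count therefore does not show that a gene was little expressed. This holds for every own row given here, also where a gene has no opposite feature. An own-row level describes that row and may not be the level of the gene.

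CYP1B1 (chromosome 2, 38066973 to 38109902, minus strand, GRCh38) was low at its opposite feature in all 4 libraries given synta-66 with CPA. The feature is the long noncoding RNA CYP1B1-AS1 (chromosome 2, 38073447 to 38231651, plus strand). In cells given CPA with synta-66 its level was 4.87, 3.15, 4.91 and 6.53 CPM in replicates 1 to 4, which rest on 12, 14, 20 and 15 reads. It was 41.3, 34.4, 34.2 and 35.4 CPM with CPA alone, from 160, 148, 167 and 164 reads. Untreated cells had 45.8, 28.6, 32.5 and 33.98 CPM, from 220, 143, 104 and 116 reads. The groups given synta-66 and not given it did not overlap, while the CPA and untreated groups did. Since this fall is what chose the gene, it is given as a description with no test.

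At CYP1B1-AS1 the group means were 4.87 ± 1.38 CPM with CPA and synta-66, 36.3 ± 3.36 CPM with CPA and 35.2 ± 7.41 CPM in untreated cells (SD, n = 4 each). The log2 fold change was -2.95 ± 0.23 (SE) for CPA with synta-66 against CPA, a level 7.7-fold lower, and -2.91 ± 0.23 (SE), or 7.49-fold lower, against untreated cells. It ranked 212th and 156th from the lowest among the 14911 changes in these comparisons, which share the synta-66 libraries. For CPA against untreated cells the log2 fold change was 0.04 ± 0.18 (SE), with a 95% interval of -0.32 to 0.40. Without the 3 libraries richest in mitochondrial ribosomal RNA it was -3.16 ± 0.29 (SE) for CPA with synta-66 against CPA. In bulk RNA, fewer cells that express a gene and less RNA per cell cannot be told apart.

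The own row of CYP1B1 had few reads, and these too were missing with synta-66. It had 0 reads in each of the 4 libraries given CPA with synta-66. With CPA alone it had 8, 2, 2 and 5 reads in replicates 1 to 4, and untreated cells had 5, 8, 2 and 2. The most that a count of 0 allows was taken as 3 reads over the group, and the 17 reads of each other group were taken as exact. On these terms the level with CPA and synta-66 was at least 4.25-fold lower than with CPA and 4.58-fold lower than in untreated cells. Counting error on the 17 reads was left out and would lower both bounds. These counts are a description too, and at 17 reads for the CPA group and 17 for the untreated group they hold little information on size.

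**Figure D1:**
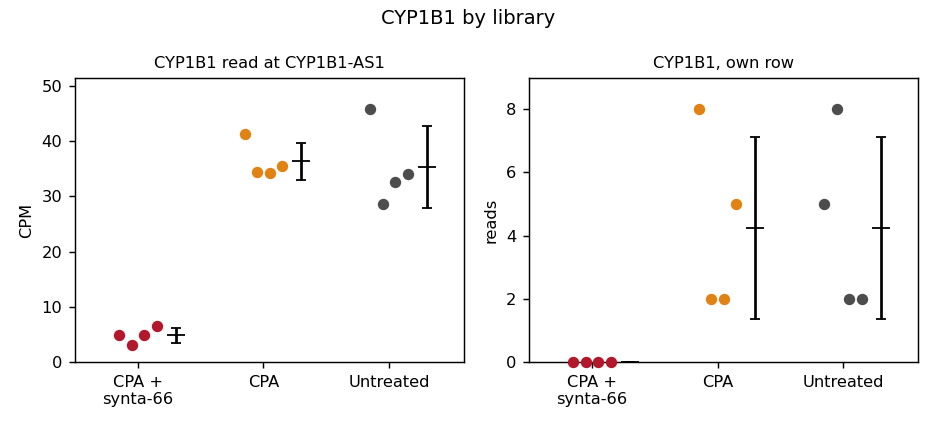
Left, CPM at CYP1B1-AS1, the feature opposite CYP1B1. Right, reads at the own row of CYP1B1. Each point is 1 library, the bars beside the points are mean ± SD (n = 4), and groups run from CPA with synta-66 to CPA to untreated. The 4 libraries given synta-66 lie between 3.15 and 6.53 CPM at CYP1B1-AS1 and at 0 reads in the own row.

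How far CYP1B1-AS1 stands for CYP1B1 is limited by the annotation. Of the 10533 exonic bases of CYP1B1-AS1 in GENCODE 44, 678 (6.44%) lie opposite CYP1B1 exons. Of these, 289 lie opposite the 5′ untranslated part of exon 1 of the main CYP1B1 transcript and 385 opposite coding bases of exon 2 of its 3 exons. The 2 other genes opposite CYP1B1-AS1, both noncoding, had 0 and 3 reads in the 12 libraries. RMDN2, the other feature opposite CYP1B1, overlaps it by 96 bases and had 23 reads. Read positions within CYP1B1-AS1 were not analysed here.

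The neighbourhood of CYP1B1-AS1 held no other row called lower with CPA and synta-66 than with CPA. Within 500 kb of CYP1B1-AS1, 6 other rows were tested and 0 were lower in that comparison, where 4.76% of all 14911 rows were called, 2.82% lower. A row is called where edgeR's quasi-likelihood test gives a Benjamini-Hochberg adjusted p below 0.05 over all rows and the change is at least 1.5-fold. One of the 6, CDC42EP3-AS1, which lies opposite the gene of the cytoskeletal regulator CDC42EP3, was called higher with CPA and synta-66 than with CPA. It had 133 ± 10.9 CPM with CPA and synta-66, 67.4 ± 5.39 CPM with CPA and 121 ± 15.1 CPM in untreated cells (SD, n = 4 each). Its log2 fold change for CPA with synta-66 against CPA was 0.98 ± 0.11 (SE, edgeR adjusted p = 1.21e-08), and it was called lower for CPA against untreated cells (-0.85 ± 0.11, edgeR adjusted p = 3.18e-07). CDC42EP3's own row was not called, with -0.24 ± 0.59 and -0.05 ± 0.57 (SE) in the same comparisons and edgeR adjusted p of 0.891 and 0.984. That row did not show the changes at CDC42EP3-AS1. With a mean of 2.83 CPM and errors this wide, how far the readings differ is uncertain. The 5 rows other than CDC42EP3-AS1 had means of 0.565 to 3.95 CPM, so that at most large changes could be seen there.

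NQO1, a quinone reductase, was not called lower, and a fall of 1.5-fold lay outside its interval. Its opposite feature, ENSG00000261602 (chromosome 16, 69709874 to 69710583, plus strand), lies with all its 575 exonic bases opposite the 3′ untranslated part of exon 6, the last exon of NQO1, and opposite no other gene. It is the deepest reading among the members, with 1045 to 2694 reads per library. Levels were 476, 450, 484 and 455 CPM in replicates 1 to 4 with CPA and synta-66. They were 512, 450, 476 and 516 CPM with CPA, and 485, 539, 549 and 513 CPM in untreated cells. The synta-66 and CPA groups overlapped, and the synta-66 libraries lay just below the lowest untreated library.

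For CPA with synta-66 against CPA, the log2 fold change of ENSG00000261602 was -0.07 ± 0.07 (SE, edgeR adjusted p = 0.706), with a 95% interval of -0.22 to 0.08. Against untreated cells it was -0.16 ± 0.08 (SE, edgeR adjusted p = 0.295), with an interval of -0.31 to -0.01. For CPA against untreated it was -0.09 ± 0.07 (SE, edgeR adjusted p = 0.626), with an interval of -0.24 to 0.06. In each of the 3 comparisons the interval leaves out a change of 1.5-fold in either direction, so depth was not the limit. The own row of NQO1 (chromosome 16, 69706996 to 69726668, minus strand), with 23 to 49 reads per library, had log2 fold changes of 0.18 ± 0.30, 0.08 ± 0.30 and -0.10 ± 0.29 (SE) in the same order, with edgeR adjusted p of 0.821, 0.945 and 0.931.

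The receptor itself was not called lower with synta-66 by either reading. AHR (chromosome 7, 16916359 to 17346152, plus strand) was read at the noncoding feature ENSG00000237773 (chromosome 7, 16970320 to 17299368, minus strand). The feature overlaps AHR exons by 492 of its 10292 exonic bases (4.78%). Of these, 270 lie in exon 1 of the main AHR transcript, which is 205 bases of 5′ untranslated and 65 of coding sequence. The feature lies opposite 2 genes, AHR among them, so how far it stands for AHR is limited. Its level was 69.8, 51.6, 71.7 and 60.5 CPM in replicates 1 to 4 with CPA and synta-66, against 52.4, 44.4, 54.6 and 43.2 CPM with CPA. Untreated cells had 39.1, 43.2, 47.5 and 45.7 CPM. The synta-66 libraries were all above the untreated ones, and 1 of the 4 fell within the range of the CPA libraries.

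At ENSG00000237773 the means were 63.4 ± 9.28 CPM with CPA and synta-66, 48.7 ± 5.71 CPM with CPA and 43.9 ± 3.63 CPM in untreated cells (SD, n = 4 each). The log2 fold change for CPA with synta-66 against untreated was 0.53 ± 0.14 (SE, edgeR adjusted p = 0.015), which is 1.45-fold and under the fold minimum. Against CPA it was 0.38 ± 0.14 (SE, edgeR adjusted p = 0.0854, 95% interval 0.10 to 0.65). For CPA against untreated it was 0.15 ± 0.14 (SE, edgeR adjusted p = 0.688). The change against untreated reached 1.5-fold when CPA with synta-66 replicate 2 was left out (0.63, adjusted p = 0.00568). Its adjusted p was 0.0765 without untreated replicate 1, 0.0631 without CPA with synta-66 replicate 1, 0.0915 without CPA with synta-66 replicate 3 and 0.109 without the 3 libraries rich in mitochondrial ribosomal RNA.

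By its own row AHR had 10 to 33 reads per library, with 5.14 ± 2.04 CPM with CPA and synta-66, 4.36 ± 0.99 CPM with CPA and 3.71 ± 1.10 CPM in untreated cells (SD, n = 4 each). The groups overlapped. The log2 fold change was 0.25 ± 0.44 (SE) relative to CPA for CPA with synta-66, and 0.49 ± 0.44 (SE) against untreated, with edgeR adjusted p of 0.831 and 0.695. The 95% interval relative to CPA was -0.63 to 1.13, which does not leave out a fall of 1.5-fold.

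TIPARP (chromosome 3, 156673235 to 156706770, plus strand) could be read only at its own row. The exons of TIPARP-AS1 (chromosome 3, 156671859 to 156674446, minus strand) do not overlap those of TIPARP in GENCODE 44, and TIPARP-AS1 had 4 reads in all, 0 with CPA and synta-66, 2 with CPA and 2 in untreated cells. The own row of TIPARP had 7, 9, 5 and 2 reads in replicates 1 to 4 with CPA and synta-66, 13, 7, 14 and 5 with CPA, and 13, 10, 12 and 7 in untreated cells. In CPM these are 1.74 ± 0.88, 2.23 ± 1.06 and 2.63 ± 0.82 (SD, n = 4 each), and the groups overlapped. The log2 fold change was -0.35 ± 0.65 (SE, edgeR adjusted p = 0.848) relative to CPA, with a 95% interval of -1.67 to 0.97, and -0.58 ± 0.65 (SE, edgeR adjusted p = 0.781) against untreated. A change of 1.5-fold either way was not detectable at this depth.

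The repressor AHRR (chromosome 5, 321714 to 438291, plus strand) has no opposite feature that meets the overlap rule. Its own row had 1, 2, 0 and 4 reads in replicates 1 to 4 with CPA and synta-66, 1, 11, 5 and 2 with CPA, and 3, 0, 2 and 5 in untreated cells. The groups overlapped, and the log2 fold change for CPA with synta-66 against CPA was -0.81 ± 1.16 (SE, edgeR adjusted p = 0.789), with a 95% interval of -3.15 to 1.52. Its size rests on single libraries: it was -0.355 without CPA with synta-66 replicate 3, -1.838 without CPA with synta-66 replicate 4 and -2.076 without the 3 libraries apart, and the row did not pass the filter without CPA replicate 2 or 3.

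CYP1A1 (chromosome 15, 74719542 to 74725536, minus strand), the most strongly inducible target of the receptor in many tissues, was not tested. It has no opposite feature, and its own row had 0 reads in 11 libraries and 2 reads in CPA replicate 2. A count of 0 allows up to 3 reads, which is 0.6 to 1.31 CPM depending on the library. Own rows were low also for members with many reads at their opposite features, so this does not show that CYP1A1 was silent.

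**Figure D2:**
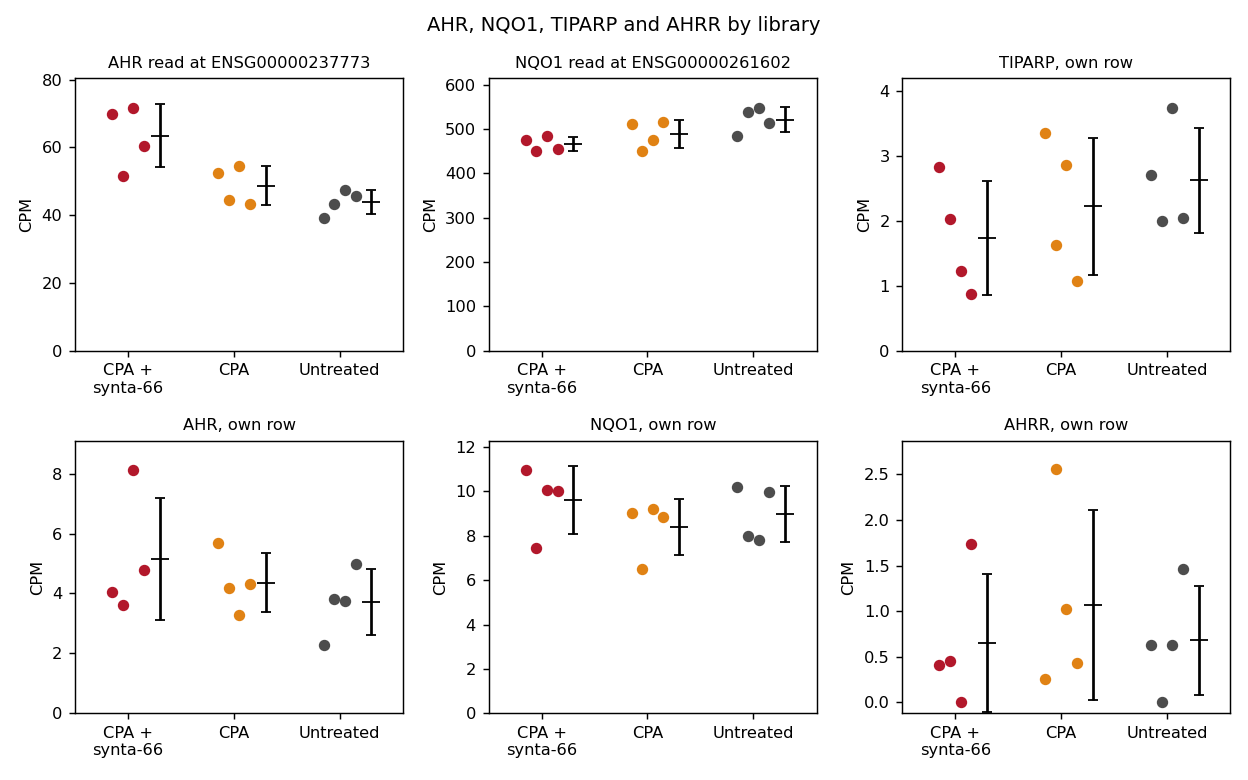
CPM of AHR and NQO1 at their opposite features and of AHR, NQO1, TIPARP and AHRR at their own rows, each on its own axis. Points are libraries, bars are mean ± SD (n = 4), and groups run from CPA with synta-66 to CPA to untreated. At ENSG00000237773 all 4 synta-66 libraries, from 51.6 to 71.7 CPM, lie above the untreated ones, and at ENSG00000261602 the synta-66 and CPA groups overlap.

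Of the 8 rows tested, 1 (CYP1B1-AS1) was called lower and 0 higher with CPA and synta-66 against CPA, where 4.76% of all rows were called, 2.82% lower and 1.94% higher. Since CYP1B1 was chosen by this contrast, nothing is read from that count. Of the 6 tested rows of the other genes, 0 were called in any of the 3 comparisons. For CPA with synta-66 against untreated cells 2.9% of all rows were called, 1.24% lower and 1.66% higher. For CPA against untreated 2.85% were called, 1.05% lower and 1.8% higher. The comparisons share libraries and are not independent of each other.

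**Figure D3:**
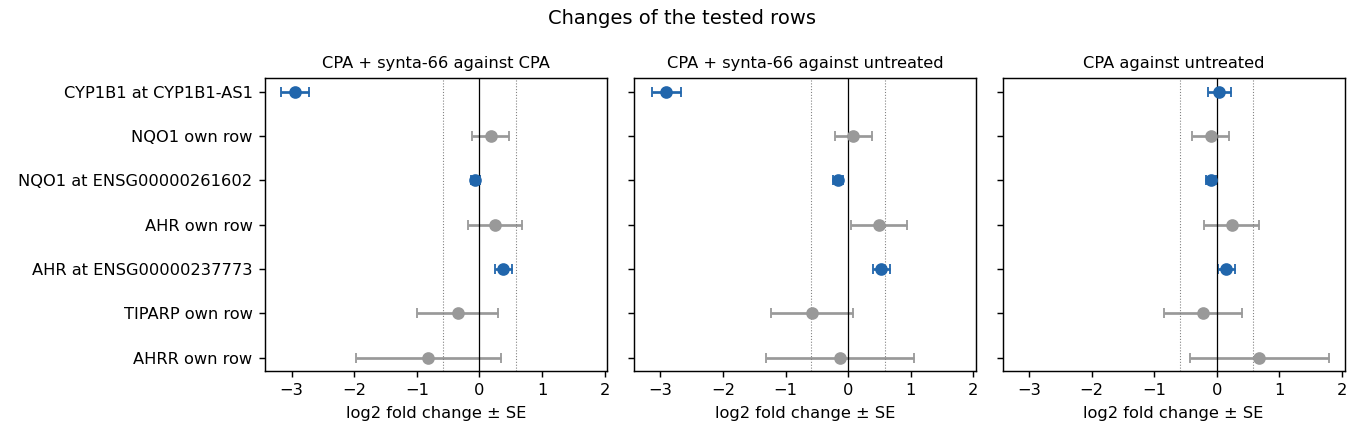
Log2 fold change ± SE of the 7 member rows other than the own row of CYP1B1, in 3 comparisons, with blue for opposite features and grey for own rows. Dotted lines mark 1.5-fold. CYP1B1-AS1 lies at -2.95 and -2.91 in the comparisons with synta-66 and at 0.04 for CPA against untreated, and the opposite feature of NQO1 lies within the dotted lines in each.

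A wider list of 18 AHR targets was read in the same way. At opposite features 5 were tested, 1 of them CYP1B1, which is left out of what follows because its fall chose the members. Of the other 4, which are NQO1, UGT1A6, NFE2L2 and SLC7A5, 0 were called in any of the 3 comparisons, where 4.76%, 2.9% and 2.85% of all rows were called. Their median log2 fold change was -0.06 for CPA with synta-66 against CPA, with a range of -0.38 to 0.51, beside -0.04 over all rows. It was -0.29 for CPA with synta-66 against untreated, with a range of -0.50 to 0.55, beside -0.06 over all rows, and -0.11 for CPA against untreated, beside -0.007. With CYP1B1 included the medians were -0.07, -0.41 and -0.09. SLC7A5, an amino acid transporter, had 561 ± 49.9 CPM at ENSG00000260466 with CPA and synta-66, 583 ± 21.5 CPM with CPA and 745 ± 25.3 CPM in untreated cells (SD, n = 4 each). Its log2 fold change was -0.41 ± 0.07 (SE, edgeR adjusted p = 0.000165) against untreated for CPA with synta-66, and -0.35 ± 0.07 (SE, edgeR adjusted p = 0.00115) for CPA against untreated, both under 1.5-fold, and -0.06 ± 0.07 (SE, edgeR adjusted p = 0.765) for CPA with synta-66 against CPA.

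NFE2L2, which encodes NRF2, had 51.3 ± 9.49 CPM at ENSG00000222043 with CPA and synta-66, 36.6 ± 6.88 CPM with CPA and 35.2 ± 5.52 CPM in untreated cells (SD, n = 4 each). The log2 fold change was 0.51 ± 0.16 (SE, edgeR adjusted p = 0.0442) against CPA and 0.55 ± 0.16 (SE, edgeR adjusted p = 0.0386) against untreated, under the fold minimum in both. By own rows 10 targets other than CYP1B1 were tested and 0 were called in any of the 3 comparisons, with medians of 0.20, -0.15 and -0.24 in the same order. SLC7A5, NFE2L2 and UGT1A6 fall outside the rule for named genes and were chosen after their values were seen.

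Of 7 genes of the receptor and its partners (AHR, ARNT, ARNT2, AHRR, HSP90AA1, HSP90AB1 and PTGES3), 7 were tested by their own rows and 3 at opposite features. None was called in any of the 3 comparisons by either reading. The opposite feature of HSP90AA1 is the protein-coding gene WDR20. The median log2 fold change for CPA with synta-66 against CPA was 0.055 by own rows, with a range of -0.81 to 0.25, and -0.09 at opposite features, beside -0.04 over all rows. Against untreated it was -0.26 by own rows and -0.09 at opposite features, beside -0.06.

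NRF2 targets were set beside them because NQO1 answers to NRF2 as well. Of 25 such genes, 7 were tested at opposite features: 1 was higher and 0 lower with CPA and synta-66 against CPA, 2 higher and 0 lower against untreated, and 0 higher and 1 lower for CPA against untreated. Over all rows 1.94% were higher and 2.82% lower in the first comparison, 1.66% and 1.24% in the second, and 1.8% and 1.05% in the third. The list's medians were 0.13, 0.32 and -0.07. SLC7A11, the cystine transporter, had 367 ± 40.7 CPM at SLC7A11-AS1 with CPA and synta-66, 125 ± 3.42 CPM with CPA and 239 ± 37.1 CPM in untreated cells (SD, n = 4 each), and accounts for a call in each. SLC7A11-AS1 also lies opposite the noncoding LINC00616. At SLC7A11-AS1 the log2 fold change was 1.55 ± 0.10 (SE, edgeR adjusted p = 6.97e-16) with synta-66 relative to CPA and -0.93 ± 0.10 (SE, edgeR adjusted p = 1.72e-09) for CPA against untreated. SLC7A11's own row, with 296 reads in all, did not show them: it had 0.12 ± 0.38 (SE, 95% interval -0.65 to 0.89) and 0.16 ± 0.38 (SE, 95% interval -0.60 to 0.93), and these intervals leave out the changes at the opposite feature. The SLC7A11-AS1 change of 0.62 ± 0.10 (SE, edgeR adjusted p = 1.03e-05) for CPA with synta-66 against untreated fell below 1.5-fold when untreated replicate 1 (0.57) or CPA with synta-66 replicate 1 (0.55) was left out.

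GCLC, the catalytic subunit of the first enzyme of glutathione synthesis, had 111 ± 5.41 CPM at GCLC-AS1 with CPA and synta-66, 98.9 ± 7.71 CPM with CPA and 66.5 ± 6.32 CPM in untreated cells (SD, n = 4 each). It was called higher with CPA and synta-66 than in untreated cells (0.74 ± 0.11, edgeR adjusted p = 5.7e-06). For CPA against untreated it was just under the fold minimum (0.58 ± 0.11, edgeR adjusted p = 0.000318), and it passed without untreated replicate 4 (0.64) or CPA replicate 1 (0.64), with no filter (0.59) and with upper-quartile scaling (0.59). GCLC's own row had 0.34 ± 0.55 (SE, 95% interval -0.77 to 1.44) for CPA with synta-66 against untreated, too wide an interval to set against the opposite feature.

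By own rows 15 NRF2 targets were tested. For CPA with synta-66 against CPA 1 was higher, UGDH, and 1 lower, AKR1C2, against untreated 1 was higher, UGDH, and for CPA against untreated 1 was higher, AKR1C2, where 4.76%, 2.9% and 2.85% of all rows were called. The medians were 0.22, 0.10 and -0.10. UGDH, which makes UDP-glucuronate, had 25.7 ± 4.67 CPM with CPA and synta-66, 14.6 ± 3.34 CPM with CPA and 14.1 ± 2.00 CPM in untreated cells (SD, n = 4 each), with log2 fold changes of 0.81 ± 0.22 (SE, edgeR adjusted p = 0.0156) against CPA and 0.86 ± 0.22 (SE, edgeR adjusted p = 0.0159) against untreated. The call against CPA ended without CPA replicate 3 (adjusted p = 0.0638) or 4 (0.071) or CPA with synta-66 replicate 2 (0.0507) or 4 (0.0567), and without the 3 libraries apart (0.164). The call against untreated ended without untreated replicate 2 (adjusted p = 0.0553) or 4 (0.0504) or CPA with synta-66 replicate 2 (0.0567) or 4 (0.0607), and without the 3 libraries apart (0.21). UGDH-AS1, the feature opposite UGDH, had 31 reads in all. For CPA with synta-66 its log2 fold change was -1.90 ± 1.25 (SE, edgeR adjusted p = 0.45) against CPA and 0.43 ± 1.41 (SE, edgeR adjusted p = 0.94) against untreated. These errors are too wide to set against the own row.

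The aldo-keto reductase AKR1C2 had 4.44 ± 0.64 CPM with CPA and synta-66, 10.3 ± 1.43 CPM with CPA and 4.22 ± 0.95 CPM in untreated cells (SD, n = 4 each). Its level is uncertain because reads that align equally well to its near-identical relative AKR1C1 may have been left out as non-unique, which was not checked. Its log2 fold change was -1.19 ± 0.36 (SE, edgeR adjusted p = 0.0302) relative to CPA for CPA with synta-66, and 1.29 ± 0.35 (SE, edgeR adjusted p = 0.0211) for CPA against untreated. The first call ended without CPA replicate 1 (adjusted p = 0.0661), 2 (0.0835) or 4 (0.0545), without CPA with synta-66 replicate 2 (0.0555), 3 (0.0622) or 4 (0.0751), without the 3 libraries apart (0.13) and with no filter (0.0694). The second ended without untreated replicate 1 (adjusted p = 0.087) or 2 (0.0681) or CPA replicate 1 (0.052) or 2 (0.066).

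Other cytochromes P450 and their redox partners were mostly too low to test. Of 23 such genes, 6 were tested by own rows, with 0 called in any of the 3 comparisons, and 3 at opposite features, with 0 called with synta-66 against CPA or against untreated and 1 called higher for CPA against untreated, where 1.8% of all rows were higher. That one was CYP2U1, a fatty acid hydroxylase, at CYP2U1-AS1, which also lies opposite SGMS2. It had 97.9 ± 10.9 CPM with CPA and synta-66, 128 ± 11.9 CPM with CPA and 73.5 ± 8.69 CPM in untreated cells (SD, n = 4 each). The log2 fold change was 0.80 ± 0.11 (SE, edgeR adjusted p = 1.74e-06) for CPA against untreated, -0.38 ± 0.11 (SE, edgeR adjusted p = 0.0248) relative to CPA for CPA with synta-66, and 0.42 ± 0.11 (SE, edgeR adjusted p = 0.0219) for CPA with synta-66 against untreated. Neither change with synta-66 reached 1.5-fold, and their adjusted p depended on single libraries. Relative to CPA it was 0.0502 to 0.0955 when CPA replicates 3 and 4 and synta-66 replicates 1, 2 and 4 were left out in turn, 0.0528 with upper-quartile scaling and 0.263 without the 3 libraries apart. Relative to untreated it was 0.0527 to 0.13 when untreated replicates 1, 2 and 4 and synta-66 replicates 2 and 3 were left out in turn, while without the 3 libraries apart the change was called (0.62, adjusted p = 0.00463).

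**Figure D4:**
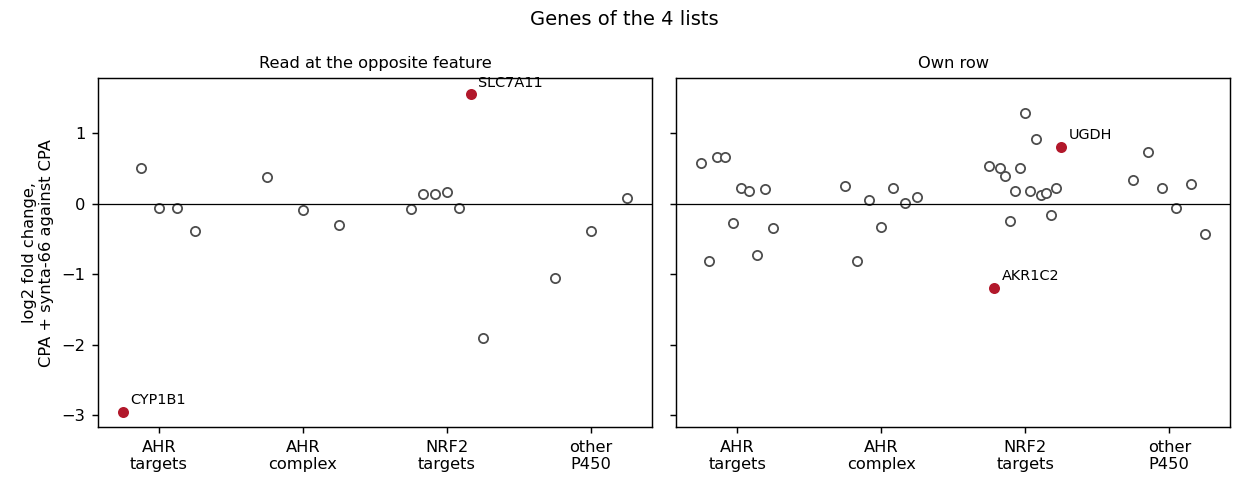
Log2 fold change for CPA with synta-66 against CPA of the tested genes of 4 lists, at opposite features on the left and at own rows on the right, with the own row of CYP1B1 left out. Each point is 1 gene, and filled red points with names passed the test and the fold minimum. CYP1B1 was chosen by this contrast, so its filled point is a description and not a test result. CYP1B1 lies at -2.95, and the other 4 AHR targets read at opposite features lie between -0.38 and 0.51. The lowest of these 4, UGT1A6, rests on 157 reads in all.

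The features whose log2 CPM over the 12 libraries followed that of CYP1B1-AS1 most closely, among 6356 with a mean of at least 5 CPM, were not genes of the AHR list. The closest was ENSG00000271795 (Pearson r = 0.959, n = 12), opposite the cadherin FAT2, with 101 ± 8.92 CPM with CPA and synta-66, 217 ± 38 CPM with CPA and 211 ± 26.5 CPM in untreated cells (SD, n = 4 each). PIAS1, a SUMO ligase that also lies opposite the calmodulin-like gene CALML4, followed (r = 0.958), with 32.1 ± 2.65 CPM with CPA and synta-66, 70.2 ± 8.95 CPM with CPA and 71.9 ± 5.41 CPM in untreated cells. Next were PC (r = 0.949), pyruvate carboxylase, opposite LRFN4, GPC1-AS1 (r = 0.936), IER5L-AS1 (r = 0.935), opposite IER5L, and LINC02709 (r = 0.931). GPC1-AS1 had 2.89 ± 1.22 CPM with CPA and synta-66, 18.7 ± 6.16 CPM with CPA and 17.3 ± 2.93 CPM in untreated cells. All 12 points of a correlation share their libraries and depth, and the values are a description. None of the features named here is of the AHR target list. Only 11 own rows and 5 opposite features of that list were tested, so this absence was likely in advance and nothing is read from it. TIPARP-AS1, with 4 reads, could not be ranked in this way.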

How the data were processed

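Total RNA of 12 HSC-3 samples was sequenced in 3 groups of 4. Per the labels' protocols, reads were trimmed with Trimmomatic 0.32 (the submitters' processing notes give 0.36), aligned with STAR 2.5.2a to GRCh38 with the Ensembl 84 annotation, and counted per gene by HTSeq 0.6.1p1 in stranded mode. The deposited files hold raw read counts for each gene, without normalization. Rows of unassigned reads entered neither library sizes nor tests; 90.5% to 96.3% of uniquely aligned reads fell in no feature.

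GENCODE 44 holds 56558 of the 60675 gene IDs, and its GRCh38 coordinates (from 1) and exons are used; exon models of Ensembl 84 can differ. Tests used edgeR 4.0.16 (R 4.3.3) on rows that reached 5 reads in 2 of a group's 4 libraries, with TMM scaling. One quasi-likelihood model with a term for group covered all 12 libraries, and p-values were Benjamini-Hochberg adjusted over 14911 rows. The 95% intervals come from the same fit. The steps were tested on simulated data. The alternatives tried were upper-quartile or RLE scaling, DESeq2 1.42.0, other filters, mitochondrial ribosomal RNA left out, a replicate block, fits of 2 groups only, summed readings, an overlap minimum of 1 or 100 bases, and each library left out. The fit without the 3 libraries with most non-unique alignments, which are also those richest in mitochondrial ribosomal RNA, was added after seeing the data.

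The members, lists and tests were chosen with earlier results of these data known. Members were named whatever their values, list genes if called and averaging 1 CPM or more, and the 6 features most like CYP1B1-AS1 by Pearson correlation. One gene of the receptor complex list is not reported here. Features were chosen by most reads, with no regard to change.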

Additional observations from a re-analysis of the deposited data

Results flagged for a closer look

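The own row of NQO1 had 6.51 CPM in CPA replicate 2, against 8.85 to 9.21 CPM in the other 3 CPA libraries. The gap of this library to its nearest neighbour was 0.867 of the group's range, above Dixon's 95% critical value for 4 samples. Chance alone marks about 1 in 20 groups, and 18 groups of member values were examined. At the opposite feature of NQO1 the same library had 450 CPM, the lowest of its group but not set apart by this measure. The cause was not tested.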

How the results depend on the processing

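At CYP1B1-AS1 the log2 fold change stayed between -3.16 and -2.75 for CPA with synta-66 against CPA under 24 alternatives and between -3.15 and -2.71 against untreated. At the opposite feature of NQO1 it stayed between -0.11 and -0.04 against CPA, between -0.20 and -0.12 against untreated and between -0.13 and -0.05 for CPA against untreated, and was called under none. At the opposite feature of AHR it was between 0.31 and 0.48 against CPA and between 0.47 and 0.63 against untreated, with leave-one-out values of 0.465 to 0.63, the highest without CPA with synta-66 replicate 2, where it passed the fold minimum. Another overlap minimum chose the same features, and the fits on own and opposite reads summed lie within these ranges.

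Low own rows changed sign, none of them while called. Leaving out 1 library gave -0.077 to 0.412 for AHR (CPA with synta-66 against CPA), -1.16 to 0.53 for AHRR (against untreated; -1.838 to -0.355 against CPA), -0.467 to 0.005 for TIPARP, -0.157 to 0.009 for NQO1 and -0.065 to 0.16 for UGDH (CPA against untreated each) and -0.027 to 0.222 for AKR1C2 (CPA with synta-66 against untreated). Without the 3 libraries apart NQO1 had -0.088 (own row, CPA with synta-66 against untreated). In that fit 102 genes were called lower with CPA and synta-66 than in untreated cells, against 185, with 252 of all 433 calls shared.

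Same-numbered replicates deviated together with correlations of -0.0237 to 0.054. These were taken over all tested rows, many with few reads, so values near 0 do not settle whether the numbers pair the samples. In each comparison, replicate 4 of the first group correlated best with replicate 4 of the second. With the replicate number as a block, 723 genes were called for CPA with synta-66 against CPA, 418 against untreated and 441 for CPA against untreated, beside 710, 433 and 425 without it, and no member's call changed. Depth limits TIPARP, AHRR and CYP1A1, whose own rows had at most 14, 11 and 2 reads in a library.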
